A study of Mus musculus with 8 samples.

Results

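Kinesin motor genes were examined in 8 mouse prostate tumors. The members were all genes named Kif with a number or Kifc with a number in the deposited tables. These were 40 of 38115 genes. Of these, 12 were placed in the mitotic class, 17 in the transport class and 11 in a remaining class of ciliary, depolymerizing and less known kinesins. The tumors grew from Myc-CaP cells, a Myc-driven murine prostate cancer line, injected into the anterior prostate lobes of male FVB mice. The cells were androgen sensitive (AS) or castrate resistant (CR) Myc-CaP, and the hosts were intact or surgically precastrated. The labels do not say which tumor grew in which host. There were 4 primary tumors (2 AS, 2 CR) and 4 metastatic tumors (2 AS, 2 CR), numbered 1 and 2 within each group by order only, so that equal numbers mark no pairing. All tumors descend from Myc-CaP, so the groups carry the genetic background of that line. The site of each metastasis, the age of the mice and the primary tumor matched to each metastasis are not given in the sources used here. Nothing in the labels says that tumors of a group came from separate mice, so p-values measure only the spread between these tumors.

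Most kinesins are motors that walk along microtubules by hydrolyzing ATP, while some, such as Kif2a and Kif2c, depolymerize microtubules instead. Mitotic kinesins build the spindle, align and separate chromosomes and complete cytokinesis, and many of their genes are transcribed mainly in dividing cells. Transport kinesins carry vesicles, organelles and protein complexes through the cell and into cilia in dividing and resting cells alike. In bulk tumor RNA, fewer cells of a type and less RNA per cell cannot be told apart.

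Promoter sequence differed between the classes in letters that are known from genes of the dividing cell. The cell cycle homology region (CHR) is the motif TTTGAA, and the CCAAT box is CCAAT. Both were searched on both strands in RefSeq windows on GRCm38.p6 that run from 250 bases before to 50 bases after each start. A window was found for 32 of the 40 kinesin genes, among them 11 of the 12 mitotic kinesins. Of the 11 mitotic windows, 10 held TTTGAA, against 3 of the 25 windows of 21 remaining kinesin genes and 17.9% of all 32851 promoter windows. Within 50 bases of the start, TTTGAA was present in 8 of the 11 mitotic windows and in 4.94% of all windows. Both motifs together were present in 7 of the 11 mitotic windows, in 8.0% of the remaining kinesin windows and in 6.95% of all windows. CCAAT, with or without TTTGAA, was found in 7 of 11 mitotic windows and in 37.4% of all windows. Within 50 bases of the start it was found in 5 of 11 mitotic windows and in 13.6% of all windows. The difference from all windows was larger for TTTGAA. These counts describe letters in a window and are no evidence of bound factors. The following stretches, read 5′ to 3′ on the strand of the gene, show where the motifs sit in 8 mitotic kinesins. Capitals mark TTTGAA, or its reverse complement TTCAAA, and CCAAT, or its reverse complement ATTGG.
Kif11 promoter, chr19:37376302-37376401, plus strand: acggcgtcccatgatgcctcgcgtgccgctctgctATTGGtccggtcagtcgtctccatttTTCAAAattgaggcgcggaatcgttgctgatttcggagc
Kif18b promoter, chr11:102925105-102925204, minus strand: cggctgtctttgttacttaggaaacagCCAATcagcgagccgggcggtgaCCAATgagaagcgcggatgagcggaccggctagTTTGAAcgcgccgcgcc
Kif23 promoter, chr9:61946780-61946879, minus strand: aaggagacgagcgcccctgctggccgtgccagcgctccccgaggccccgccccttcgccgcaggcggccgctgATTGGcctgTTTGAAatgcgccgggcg
Kif20b promoter, chr19:34922278-34922377, plus strand: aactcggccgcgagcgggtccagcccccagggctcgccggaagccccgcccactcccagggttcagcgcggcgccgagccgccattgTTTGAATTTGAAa
Kif15 promoter, chr9:122951050-122951079, plus strand: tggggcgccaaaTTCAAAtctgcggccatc
Kif22 promoter, chr7:127042420-127042449, minus strand: gggccccggtaaTTCAAAagagagaagcgg
Kif4 promoter, chrX:100626072-100626101, plus strand: ctctgggatcaaTTTGAAacttggcggtta
Kifc1 promoter, chr17:33890615-33890644, minus strand: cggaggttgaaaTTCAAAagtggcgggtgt

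Positions were counted from 1 at the RefSeq start, with -1 as the base before it. In Kif11 the reversed CCAAT box at position -45 preceded the reversed CHR at -19, and the stretch held 0 bases of GENCODE M21 exon. Kif18b carried CCAAT boxes at -53 and -30 before a CHR at 4. In Kif23 the reversed CCAAT box at -7 stood just before the CHR at 3. Kif20b held the CHR in tandem, at 8 and 14, with no CCAAT box in its window. The printed 30 bases of Kif15, Kif22, Kif4 and Kifc1 lie wholly in annotated exon, while 20 bases of the Kif18b stretch and 17 of the Kif20b stretch do. Kif18a was the only mitotic kinesin among the 11 without TTTGAA, and carried the E2F motif TTTGGCGC in reverse at -10. The same E2F motif occurred in Kif15 in reverse at -27, in 0 of the 25 remaining kinesin windows and in 0.514% of all windows. The other E2F form searched, TTTCCCGC, was in 0 of 11 mitotic windows and 1.07% of all windows. The CHR variant TTTAAA was in 2 of 11 mitotic windows, in 0 of 25 remaining windows and in 13.2% of all windows. The Myc E-box CACGTG was in 0 of 11 mitotic windows, in 1 of the 25 remaining windows and in 7.15% of all windows.

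**Figure D1:**
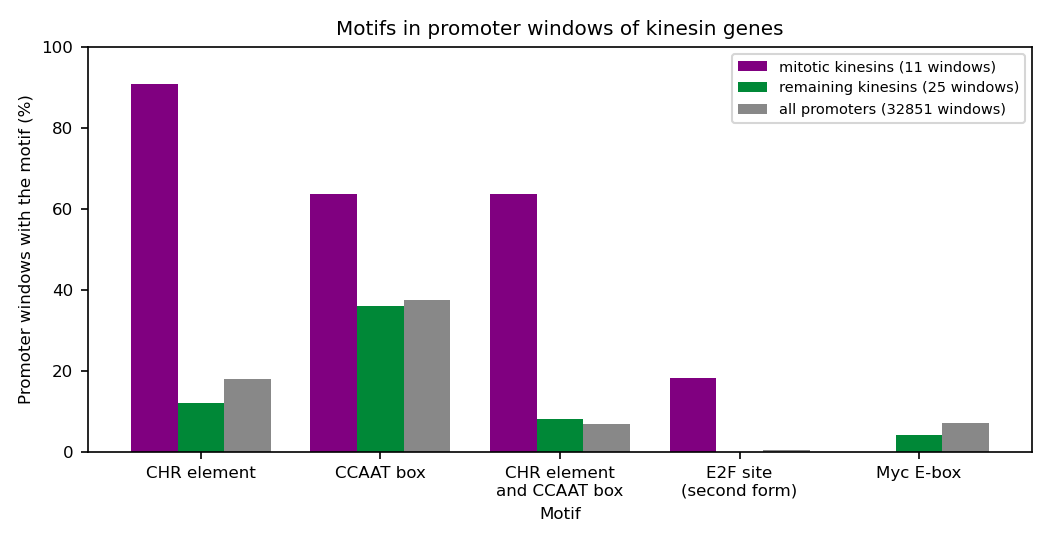
Share of promoter windows (%, y axis) that hold each motif (x axis) for 11 windows of mitotic kinesins, 25 windows of the remaining kinesin genes and all 32851 RefSeq windows, where the E2F site drawn is TTTGGCGC. The CHR element is found in 90.9% of mitotic windows and in 17.9% of all windows, while the Myc E-box is found in none of the mitotic windows.

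The libraries held 20905806 to 91886163 counts each, and the kinesin genes took between 0.0551% and 0.0861% of them. AS libraries held 61237285 to 91886163 counts and CR libraries 20905806 to 76887592. Normalized counts are counts scaled to a common library size with TMM factors (0.811 to 1.15). Of the prostate epithelial markers, Krt8 stood at 36.4 to 710 CPM (counts scaled to the TMM-adjusted size of a library), while Krt18 stayed at 0.0991 to 0.418 CPM. Summed leukocyte markers were 70.7 to 95.9 CPM in primary and 42.4 to 100.9 CPM in metastatic tumors. Summed endothelial markers were 34.6 to 54.8 and 47.8 to 78.0 CPM, and fibroblast markers 35.8 to 61.7 and 27.0 to 65.3 CPM, in primary and metastatic tumors, so that each range overlapped. Hepatocyte markers summed to 3.66 to 25.8 CPM, skeletal muscle markers to 0.545 to 14.1 CPM and neuron and neuroendocrine markers to 0.218 to 3.10 CPM. Lung epithelial markers summed to at most 0.167 CPM.

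The first comparison asked which kinesin genes differ between metastatic and primary tumors. Mitotic kinesins were higher in metastatic tumors for 11 of 12 genes, with a median log2 fold change of 0.95 (1.93-fold). Transport kinesins had a median of -0.20, with 6 positive and 11 negative, and the median over all 17104 genes tested was -0.03. By the quasi-likelihood test of edgeR, adjusted after Benjamini and Hochberg, 0 of 36 tested kinesins passed an adjusted p of 0.05, and the background was 0 of 17104 genes (0%). The adjusted p was 0.997 for each of the 12 mitotic kinesins. At an unadjusted p under 0.05, which 2.68% of all genes reached, 5 of 12 mitotic kinesins were higher (Kif14, Kif23, Kif2c, Kif20b and Kif22), against 1.56% of all genes in that direction, and 0 of 17 transport kinesins differed. DESeq2 gave 0 adjusted calls among the kinesins as well, with 8 of 12 mitotic kinesins at an unadjusted p under 0.05 against 3.57% of all genes.

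**Figure D2:**
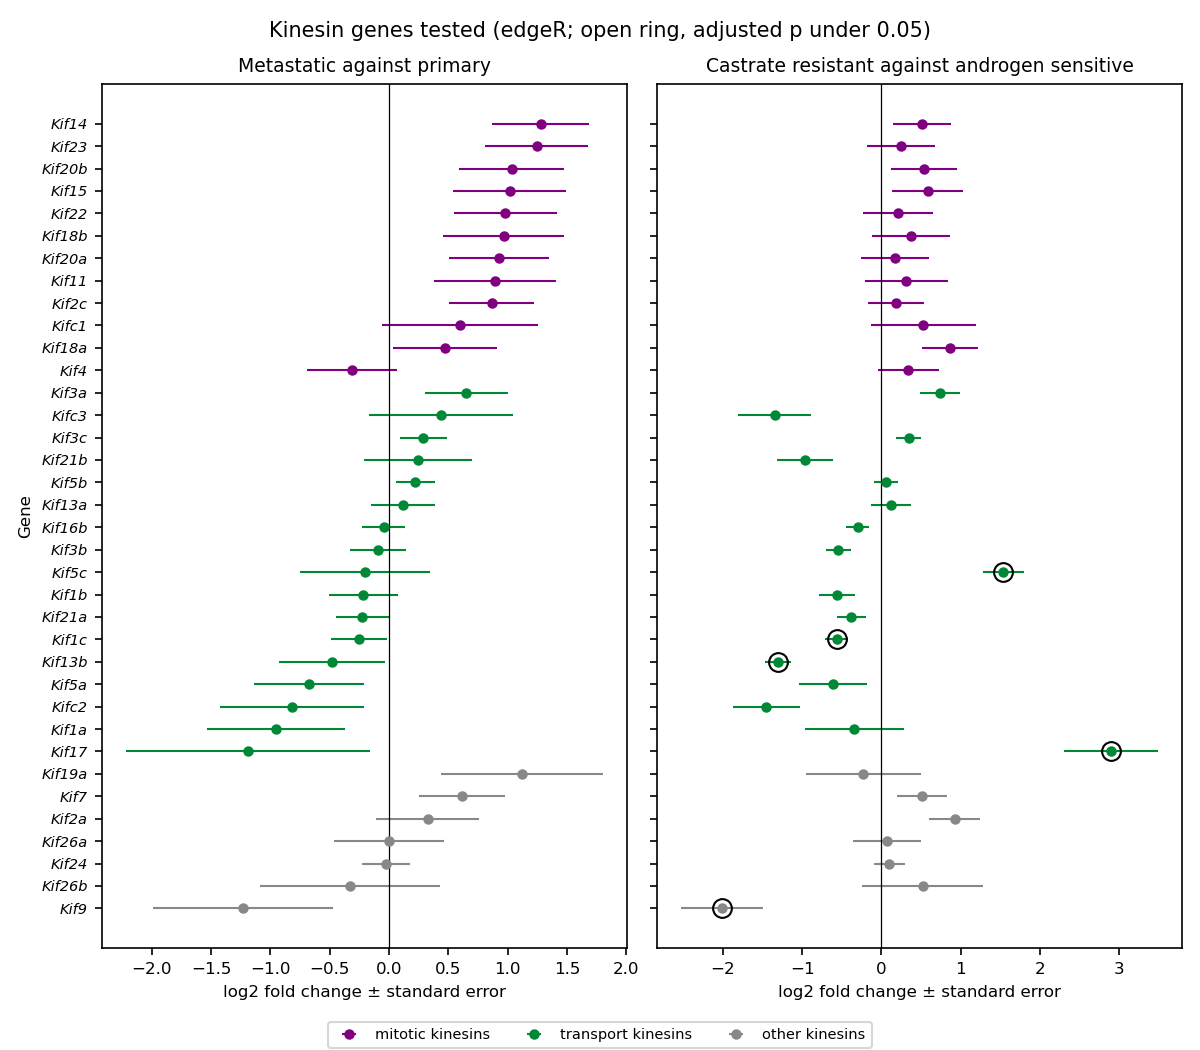
log2 fold change with its standard error (x axis) for the 36 kinesin genes tested (y axis, grouped by class), metastatic against primary at left and CR against AS at right, from 4 tumors on each side. In the left panel 11 of the 12 mitotic kinesins lie above 0 and no gene is ringed, while in the right panel 5 genes carry the ring for an adjusted p under 0.05.

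Among motors of the spindle poles, Kif11, the plus-end motor that pushes the poles apart, was measured at 409 and 251 normalized counts in primary AS1 and AS2 and at 1164 and 215 in primary CR1 and CR2. Its metastatic values were 1169 and 1013 in AS1 and AS2 and 600.3 and 1021 in CR1 and CR2. The primary tumors other than CR1 lay below all metastases, and primary CR1 lay among them. Kif15, which can take over spindle separation from Kif11, showed the same overlap, with 256 and 161 in primary AS, 699 and 182 in primary CR, 712 and 564 in metastatic AS, and 444 and 919 in metastatic CR tumors. Kifc1, the minus-end motor that clusters centrosomes, was low, at 28.4, 18.6, 91.3 and 20.6 in primary AS1, AS2, CR1 and CR2, and at 59.4, 72.7, 15.6 and 99.3 in the metastases in the same order. Its lowest metastasis, CR1, was below every primary tumor. That order is uncertain, since it rests on 9 raw counts in metastatic CR1, 7 in primary CR2 and 22 in primary AS2. Of Kifc1's transcript windows of the length of a read, 23.4% were identical to the paralog Kifc5b, so its counts are uncertain. With the counts of both genes summed, the log2 fold change was 0.45 in place of 0.60.

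Among motors acting on chromosomes and kinetochores, Kif2c, the centromeric microtubule depolymerase that corrects faulty attachments, was at 282 and 180.2 in primary AS and 493 and 176 in primary CR tumors. Metastatic values of Kif2c were 527 and 566 in AS and 373 and 606 in CR tumors, a log2 fold change of 0.87 ± 0.36 (SE). Kif18a, which damps chromosome oscillations at the metaphase plate, was at 317 and 231 in primary AS, 934 and 641 in primary CR, 772 and 588 in metastatic AS, and 508 and 1080.4 in metastatic CR tumors. Both CR primaries overlapped the metastases for this gene. Kif18b, which shortens astral microtubules, ranged from 35.3 to 216 in primary and from 166 to 243 in metastatic tumors. Kif22, a chromokinesin that pushes chromosome arms outward, was at 147, 103, 345 and 106 in primary AS1, AS2, CR1 and CR2, and at 395, 402, 201 and 392 in the metastases in that order. Primary CR1 exceeded the low metastatic CR1 here too, and the remaining 3 primaries were below every metastasis.

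Kif4, the chromokinesin that condenses chromosome arms and organizes the midzone, departed from its class. It was at 1068 and 1482 in primary AS and 1919 and 4027 in primary CR tumors, against 1922 and 2101 in metastatic AS and 1350 and 1453 in metastatic CR tumors. The highest value was in primary CR2, where most mitotic kinesins were low, and the mean was 2124 ± 1316 (SD, n = 4) in primary and 1706 ± 362 (SD, n = 4) in metastatic tumors. Per length, Kif4 was also the highest mitotic kinesin, at 5.85 CPM per kb of exon, followed by Kif20a at 3.26. Kif4 shares 832 exonic bases with Pdzd11 on the opposite strand and 15.0% of its transcript windows lie there. The strand setting of the counting is not stated, so reads of the 2 genes may be mixed. Pdzd11 itself was at 1119.6 to 1753 in primary AS, 1684 to 1714 in primary CR, 1591 to 1789 in metastatic AS and 1208 to 1314 in metastatic CR tumors.

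Motors of the midzone and midbody included the 2 highest differences of the class, Kif14 and Kif23. Kif14, which brings citron kinase to the midbody, was at 82.3 and 50.7 in primary AS, 145 and 73.5 in primary CR, 194 and 189.5 in metastatic AS, and 135 and 343 in metastatic CR tumors. Its mean of 87.9 ± 40.4 normalized counts in primary tumors stood against 215 ± 89.0 in metastatic tumors (SD, n = 4 each), a log2 fold change of 1.28 ± 0.41 (SE, unadjusted p = 0.0114 by edgeR). Kif23, the motor subunit of centralspindlin, was at 203 and 134 in primary AS, 411 and 115 in primary CR, 591 and 495 in metastatic AS, and 298 and 676 in metastatic CR tumors. The higher values of Kif14 and Kif23 were in metastatic CR2 and the metastatic AS tumors, and primary CR1 overlapped metastatic CR1 for both. Kif20a, which carries the Aurora B complex to the midzone, was at 504, 382, 1135 and 288 in primary AS1, AS2, CR1 and CR2, and at 1193, 1259.9, 666 and 1284 in the metastases. Metastatic CR1 was the only metastasis below primary CR1 for this gene. Of Kif20a's transcript windows, 27.4% lie in 1271 bases shared with Cdc23 on the opposite strand, and Cdc23 had a log2 fold change of 0.26. Kif20b, a motor needed late in cytokinesis, was at 352 and 231 in primary AS, 913 and 244 in primary CR, 930.4 and 799 in metastatic AS, and 663 and 1185 in metastatic CR tumors.

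**Figure D3:**
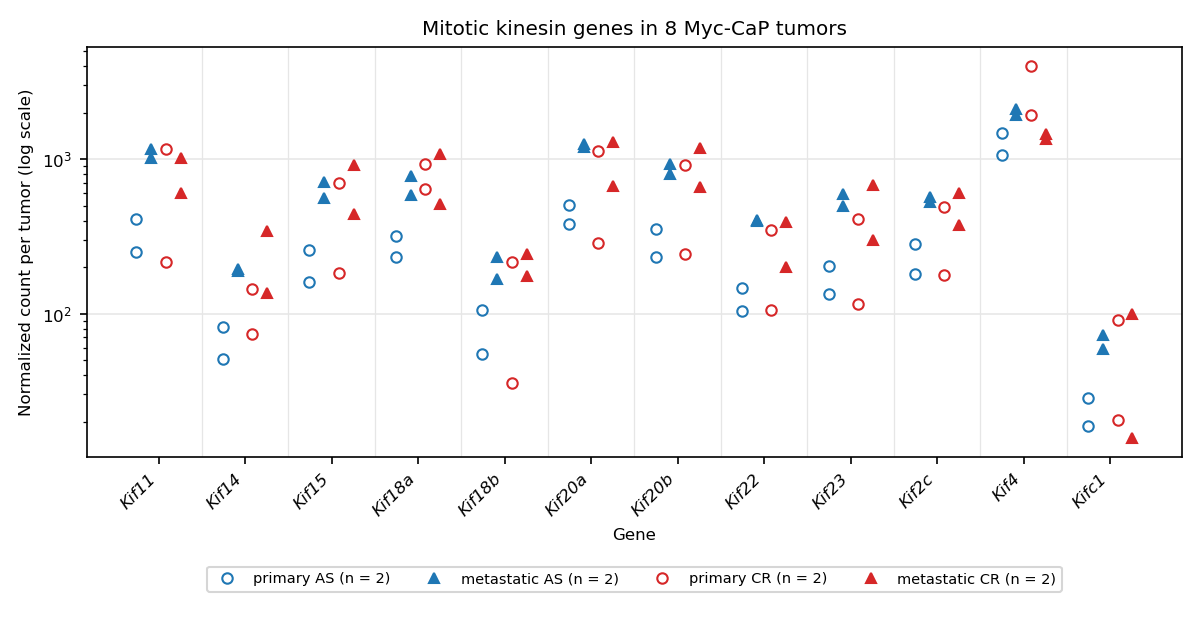
Normalized count per tumor (y axis, log scale) of each mitotic kinesin gene (x axis), with 1 symbol per tumor, open circles for primary, filled triangles for metastatic, blue for AS and red for CR tumors (n = 2 a group). In every gene both AS metastases lie above both AS primaries, and in 11 of 12 genes the upper open red circle is primary CR1, close to the metastases.

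One tumor set much of the spread. Primary CR1 was the highest primary tumor in 11 of 12 mitotic kinesins, with 2.11 to 4.05 times the mean of the remaining primaries in those genes (0.875 in Kif4), and metastatic CR1 was the lowest metastasis in 11 of 12. All 12 were lower in metastatic CR1 than in primary CR1. In consequence 0 of 12 had all metastases above all primaries (background 0.854%). Without primary CR1 the groups did not overlap for 9 of 12, higher in metastases, against 4.28% of all genes, and without metastatic CR1 for 5 of 12, against 2.28%. Both tumors were singled out by the values of these same genes. The counts without either tumor in this paragraph are therefore descriptive, and the shares of all genes are no like comparison. The exception genes without primary CR1 were Kif18a, Kif4 and Kifc1. The count of 5 mitotic kinesins at an unadjusted p under 0.05 was 2 without any 1 of the AS tumors, primary CR2 or metastatic CR2, and 7 without metastatic CR1. With primary CR1 left out, edgeR gave 10 of 12 at an unadjusted p under 0.05 (5.43% of all genes) and 0 adjusted calls, and the median of the class was 1.58. With DESeq2 and without primary CR1, a fit chosen after the values were seen, 9 kinesins passed an adjusted p of 0.05, against 1.03% of all genes. They were Kif11, Kif14, Kif15, Kif18b, Kif20a, Kif20b, Kif22, Kif23 and Kif2c, with adjusted p from 1.31e-05 (Kif20b) to 0.0104 (Kif18b). By the exact two-sided permutation test of 4 against 4 tumors, whose smallest p is 0.0286, p was 0.0571 for Kif14, Kif20a, Kif22, Kif23 and Kif2c.

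The share of all kinesin counts taken by the 12 mitotic genes was lowest in the AS primaries. It was 8.59% and 8.63% in primary AS, 21.3% and 15.2% in primary CR, 19.8% and 19.4% in metastatic AS, and 13.2% and 20.8% in metastatic CR tumors. Both AS primaries lay below every other tumor, but in primary CR2 the gene Kif4 alone held 1370 of the 2083 mitotic counts. By the mean log2(CPM + 1) over the mitotic class, primary CR2 (2.17) lay between primary AS1 (2.34) and primary AS2 (1.99). The mean log2(CPM + 1) over the class was 2.46 ± 0.59 in primary and 3.24 ± 0.34 in metastatic tumors, and for the transport class 3.64 ± 0.11 and 3.56 ± 0.08 (SD, n = 4 each). The mitotic class thus spread more widely between primary tumors than the transport class did.

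The difference by phenotype was asked next. In AS tumors all 12 mitotic kinesins were higher in both metastases than in both primaries, against 18.8% of all 18889 genes and 1 of 17 transport kinesins. Their median log2 fold change within AS was 1.50 (2.83-fold), and 9 of 12 had an unadjusted p under 0.05, against 1.55% of all genes in that direction. That count was 0 without primary AS2, 1 without metastatic AS1 and 5 without metastatic AS2, fits in which 1 tumor stood alone in its group and was assumed to vary like the others. The largest difference within AS was in Kif11 at 1.72 ± 0.68 (SE) and the smallest in Kif4 at 0.65 ± 0.34. Within CR tumors the median was 0.44, 0 of 12 had both metastases above both primaries (background 13.9%), and Kif4 alone had both below at -1.10 ± 0.34 (background 16.6%, and 5.37% for a lower value at an unadjusted p under 0.05, which Kif4 reached). Kif4 was so the 1 mitotic kinesin of 12 with both metastases higher in AS and both lower in CR, against 1.79% of all genes. Kif14 had the highest value within CR, at 1.05 ± 0.54. The count of mitotic kinesins at an unadjusted p under 0.05 within CR was 1, and it was 10 without primary CR1, 2 without metastatic CR1 and 0 without primary CR2. No gene passed an adjusted p of 0.05 within AS or within CR by edgeR, with adjusted p of 1 for all 12 within AS and at least 0.625 within CR.

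The interaction term compares these 2 differences directly. It was negative for all 12 mitotic kinesins with a median of -1.06, beside a median of -0.05 over all genes. By edgeR 0 of 37 kinesins passed an adjusted p of 0.05 (background 0%), with adjusted p of at least 0.964. An unadjusted p under 0.05 was reached by 3 of 37 kinesins, against 2.74% of all genes. They were Kif4 at -1.76 ± 0.48 (SE), Kif18a at -1.34 ± 0.56 and, with the opposite sign, Kif9, and 1.54% of all genes reached it with a negative sign. Without the low-count filter, edgeR called Kif4 (-1.82, adjusted p = 0.0165), with 8 of 12 mitotic kinesins at an unadjusted p under 0.05. The shares of all genes that reached either threshold in that fit were not computed, so these counts say nothing particular of kinesins. Leaving out 1 tumor at a time, the term of Kif4 ranged from -2.21 (without primary CR1) to -1.17 (without primary CR2). That of Kif18a ranged from -1.97 (without metastatic CR2) to -0.98 (without metastatic CR1). The 2 CR metastases lay at opposite ends of their group, since metastatic CR2 was the highest metastasis in 9 of 12 genes and metastatic CR1 the lowest in 11 of 12.

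**Figure D4:**
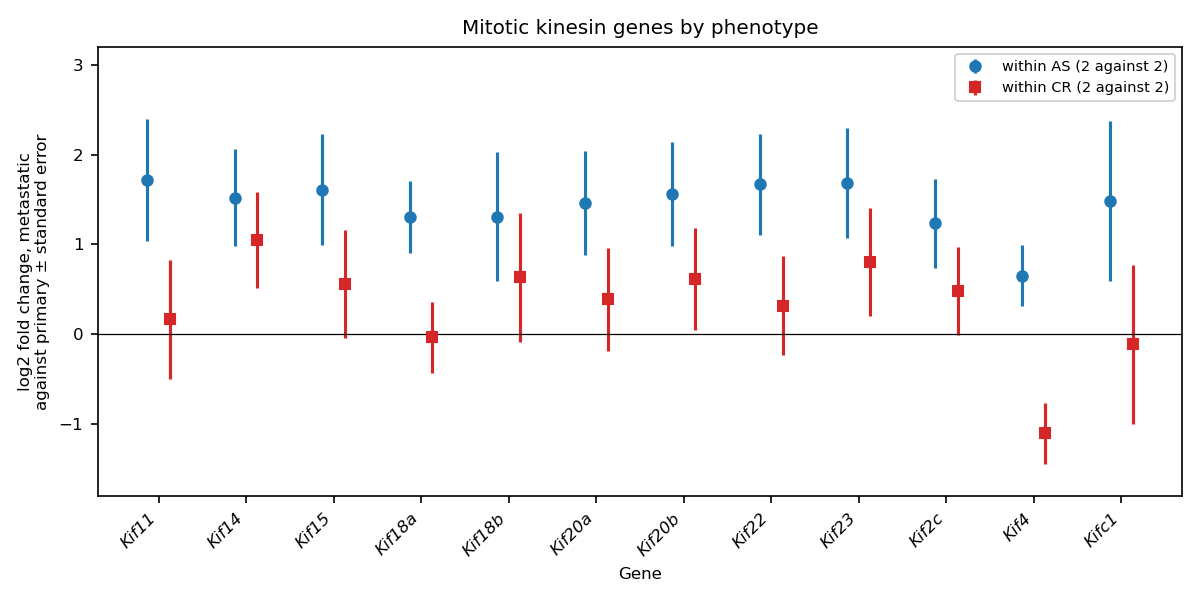
log2 fold change of metastatic against primary tumors with its standard error (y axis) for each mitotic kinesin (x axis), within AS (blue circles) and within CR (red squares), 2 tumors against 2. Every blue circle lies above 0 and above the red square of its gene, and the square of Kif4 lies lowest at -1.10.

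Genes that work with these motors had mostly the same sign. Of 22 spindle and cytokinesis partners, 21 were higher in metastatic tumors with a median log2 fold change of 1.04, and 10 were higher at an unadjusted p under 0.05 (1.56% of all genes), while 0 passed the adjusted threshold. Citron kinase (Cit), the cargo of Kif14 at the midbody, had a log2 fold change of 1.24, and Racgap1, the partner of Kif23 in centralspindlin, one of 0.95, both among the 10. Anln, which scaffolds the contractile ring, was at 1.34, and the kinetochore kinesin Cenpe, whose name the rule does not match, at 1.22. Numa1 was the exception in sign at -0.01, and Incenp was nearly unchanged as well at 0.11 ± 0.24 (SE). The proliferation gene Mki67 was at 2538 and 1498 in primary AS, 3887 and 2040.0 in primary CR, 6277 and 4717 in metastatic AS, and 4792 and 8506 in metastatic CR tumors. All metastases were above all primaries for Mki67, which was not so for any mitotic kinesin. Top2a was at 2704, 1811, 8185 and 1519.7 in primary AS1, AS2, CR1 and CR2, and at 8091, 5844, 4861 and 8339.9 in the metastases, with primary CR1 high as in the kinesins.

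Transport kinesins gave log2 fold changes from -1.19 (Kif17) to 0.65 (Kif3a) between metastatic and primary tumors, none with an unadjusted p under 0.05. Per exon length the most abundant kinesins outside the mitotic class were Kif5b, the ubiquitous heavy chain of conventional kinesin, at 23.7 CPM per kb, Kif1c at 12.6, Kif5c at 5.25, Kif3a at 4.68 and Kif1b at 4.38. Kif5b ranged from 8872 to 11197 normalized counts in primary and from 10912 to 13049 in metastatic tumors, a log2 fold change of 0.22 ± 0.16 (SE). Kif3a, the motor subunit of the kinesin-2 complex of intraflagellar transport, had the smallest p of its class at 0.65 ± 0.35 (unadjusted p = 0.0930 by edgeR). Kif3a was at 478 and 843 in primary AS, 738 and 1041 in primary CR, 893 and 681 in metastatic AS, and 1418 and 1883 in metastatic CR tumors, so only the CR metastases stood above the primaries. Kif1a, the neuronal carrier of synaptic vesicle precursors, was barely present, at 9.34 to 53.0 in primary and 9.77 to 22.4 in metastatic tumors. Of 19 cargo adaptor and light chain partners tested, 0 had an unadjusted p under 0.05 and the median was -0.10.

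The comparison of CR with AS tumors gave a different set. With tumor type in the model, 5 of 36 kinesins passed an adjusted p of 0.05 by edgeR, against 11.4% of all 17797 genes. Of these, 2 were higher (background 5.66%) and 3 lower (background 5.72%) in CR tumors. An unadjusted p under 0.05 was reached by 13 of 36, against 28.2% of all genes. Both shares were near the background, so the counts say nothing particular of kinesins. None of the 5 was a mitotic kinesin, of which all 12 had positive log2 fold changes with a median of 0.36 and adjusted p from 0.151 to 0.822. That direction rested on primary CR1, without which the median was -0.27. The transport class had a median of -0.38, with 2 higher and 2 lower calls among 17 genes, beside a median of -0.01 over all genes.

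Kif5c, a heavy chain of conventional kinesin enriched in neurons, rose in CR tumors. It was at 736 and 1435 in primary AS and 1444 and 897 in metastatic AS tumors, against 3294 and 4054 in primary CR and 3269 and 2657 in metastatic CR tumors. Every CR tumor was above every AS tumor, with a log2 fold change of 1.54 ± 0.26 (SE), or 2.91-fold, and an adjusted p of 0.0109 by edgeR. Of the other heavy chains, Kif5b had a log2 fold change of 0.05 (adjusted p = 0.844) and Kif5a one of -0.61 (adjusted p = 0.384), and the differences between the 3 genes were not tested. Kif17, a kinesin-2 motor of dendrites and cilia, rose too, from 20.8 and 14.4 in primary AS and 12.8 and 34.3 in metastatic AS to 168 and 338 in primary CR and 142 and 47.2 in metastatic CR tumors. The groups did not overlap, although metastatic CR2 came near the highest AS tumor. The log2 fold change of Kif17 was 2.90 ± 0.59 (adjusted p = 0.0207).

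Kif13b, a kinesin-3 motor that carries scaffold and membrane proteins, fell in CR tumors. It was at 2386 and 1889.5 in primary AS and 1653 and 1463 in metastatic AS tumors, and at 837 and 961 in primary CR and 715 and 524 in metastatic CR tumors. All CR values were below all AS values, with a log2 fold change of -1.30 ± 0.17 and an adjusted p of 0.00472 by edgeR. Kif1c, a kinesin-3 motor of integrin vesicles, fell by 0.56 on the log2 scale (adjusted p = 0.0363), from 7862, 6312, 5723 and 6044 in AS to 4391, 5174, 4159 and 3937 in CR tumors (primary 1, primary 2, metastatic 1, metastatic 2). The 5 calls became 2 without primary AS1, primary AS2, metastatic AS1 or metastatic CR1, 3 without metastatic AS2 and 8 without primary CR1. Kif13b and Kif5c kept an adjusted p under 0.05 in all 8 fits that left out 1 tumor each. Kif17 kept it in 4 of 8, Kif1c in 1 of 8 and Kif9 in 0 of 8, where adjusted p reached 0.0735, 0.121 and 0.118. Kif3b was lower in every CR than in every AS tumor as well, at -0.54, with an adjusted p of 0.0577 by edgeR and 0.0269 by DESeq2. Kifc2 and Kifc3, both C-terminal motor kinesins, had the log2 fold changes -1.45 and -1.35. Their adjusted p values were 0.0589 and 0.0942 by edgeR, and 0.00853 and 0.0199 by DESeq2. Non-overlap between phenotypes was seen in 2 transport kinesins higher in CR (background 8.96%) and 3 lower (background 9.49%). DESeq2 called 10 of 36 kinesins, Kif3b, Kifc2 and Kifc3 among them, against 20% of all genes. Without a low-count filter edgeR called 10 kinesins, against 9.72% of 31875 genes. Those 31875 include the low-count genes that the filter removes, so that share is not like the filtered ones. Library totals also differed by phenotype, as given above, and their part in these results was not tested.

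**Figure D5:**
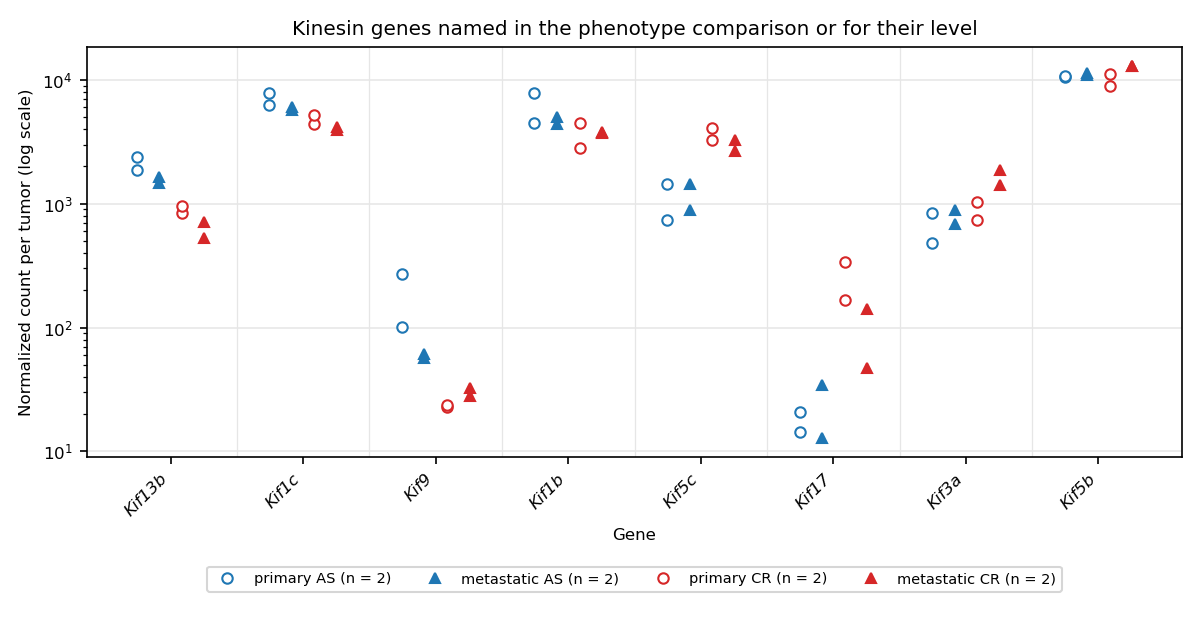
Normalized count per tumor (y axis, log scale) for 8 kinesin genes (x axis), with open circles for primary, filled triangles for metastatic, blue for AS and red for CR tumors (n = 2 a group). Kif13b, Kif1c and Kif9 are lower and Kif5c and Kif17 higher in every CR than in every AS tumor, while Kif5b stays between 8872 and 13049.

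Kif9, a kinesin of motile cilia and the sperm tail, fell in CR tumors. It was at 272 and 101.5 in primary AS and 60.9 and 57.0 in metastatic AS tumors, against 23.0 and 23.5 in primary CR and 27.8 and 32.3 in metastatic CR tumors. The log2 fold change was -2.01 ± 0.52 (adjusted p = 0.0399 by edgeR), and primary AS1 was far above the other AS tumors. Of 4 motile cilia markers, 2 were found in the tables, Foxj1 and Rsph1. Foxj1, the transcription factor of multiciliated cells, was lower in CR tumors like Kif9, at 9.65 to 28.7 CPM in AS and 0.149 to 0.921 CPM in CR tumors. Rsph1 did not move with Kif9 and was nearly absent, at no more than 0.0098 CPM in AS and 0.042 CPM in CR tumors. The part of Foxj1 in the Kif9 result was not tested.

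Among 20 transport partners tested, 3 were lower in CR tumors at an adjusted p under 0.05 by edgeR (background 5.72%) and 0 were higher (background 5.66%). By sign alone, 11 were higher and 9 lower. Trak2, a mitochondrial adaptor of kinesin-1, was at 3713, 2951, 2995.5 and 2464 in primary AS1, primary AS2, metastatic AS1 and metastatic AS2, and at 1184, 1223, 1389.7 and 1162 in the CR tumors in the same order. No CR tumor reached an AS tumor, and the log2 fold change was -1.29 (adjusted p = 0.00446). Klc2, a light chain of kinesin-1, fell by 0.61 (adjusted p = 0.0423) and Rhot2, a mitochondrial anchor of the motor, fell by 0.69 (adjusted p = 0.0431). Arl8b and Klc4 came close to the threshold by edgeR, in opposite directions. Arl8b was higher in every CR than in every AS tumor, at 0.54 (adjusted p = 0.0511), and Klc4 was at -0.83 (adjusted p = 0.0517).

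The remaining 11 kinesins gave no adjusted call in metastatic against primary tumors. Kif7, a regulator of Hedgehog signaling at the cilium tip, was at 0.62 ± 0.36 (SE) on the log2 scale, and 581 of its 4477 transcript windows are shared with an antisense gene. Kif19a, which limits the length of motile cilia, was at 1.12 ± 0.68 on 4.31 to 44.7 normalized counts. Kif2a, a microtubule depolymerase close to Kif2c, was at 0.33 ± 0.43, with 21.7% of its windows shared with Dimt1 on the opposite strand. Kif24, Kif26a and Kif26b ranged from -0.33 to -0.00059. Kif12, Kif2b and Kif6 did not pass the low-count filter in any fit, with at most 10, 8 and 8 counts in a library and 0 counts in 4 of 8 tumors each. Kif27 held at most 17 counts and passed only in the fit of the 4 groups. These 4 genes were near the limit of detection, since 3 counts, the limit that a count of 0 allows, correspond to 1.74 to 8.82 normalized counts.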

How the data were processed

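Total RNA of 8 tumors was sequenced by the authors after ribosomal RNA depletion (stranded libraries, paired reads of 101 bases). Per the labels and the study's methods, reads with at most 2 mismatches that aligned uniquely to mm10 were counted. The submitters' processing notes name CASAVA 1.8.2 and TopHat2 2.0, whereas the methods name Bowtie. The counting tool, annotation and strand setting are not given in the sources used here. The deposited values are raw counts per gene, 1 table per tumor. The study's own comparison describes fewer primary tumors than the 4 tables hold and does not name which, and all 4 were used here.

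Counts were tested with edgeR 4.0.16 (R 4.3.3, limma 3.58.1) by the quasi-likelihood test with TMM factors, filterByExpr and Benjamini-Hochberg adjustment over all genes tested, at 0.05. Tumor type was the only term for metastatic against primary. Tumor type and phenotype were the terms for CR against AS, and a fit of 4 groups gave the values within phenotypes and the interaction. DESeq2 1.42.0, RLE factors, other filters and fits leaving out 1 tumor were the alternatives. For normalized counts, each count was put over the TMM-adjusted library size and multiplied by the mean of these sizes. Class means used log2(CPM + 1), computed from the counts, and levels between genes used CPM per kb of merged GENCODE M21 exon. Error bars over tumors are SD, those of fold changes are SE, and the count floor covers counting error only. The scripts were tested on simulated data.

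Named genes were the 12 mitotic kinesins, the 5 further kinesins with the smallest p in each of the 2 comparisons and the 5 with the highest level per length. Partners were taken from those with an unadjusted p under 0.05, at most 6 per list and comparison, and not every partner that met this rule was named. Cenpe, Mki67 and Top2a were named for reference. Other genes (Numa1, Kif3b, Kifc2, Kifc3, Kif5a, Kif2a, Kif24, Kif26a, Kif26b and overlapping genes) were named after their values were seen. The members and lists were chosen with earlier results of these data known. Promoter windows came from RefSeq on GRCm38.p6, and shared transcript windows from exact matches of 101 bases. Marker lists covered prostate epithelium, leukocytes, endothelium, fibroblasts, neurons and neuroendocrine cells, motile cilia, hepatocytes, lung epithelium and skeletal muscle.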

Additional observations from a re-analysis of the deposited data

Results flagged for a closer look

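In each group of 4 tumors (metastatic, primary, AS or CR), the highest or lowest tumor was compared with the others, and it stood apart where its gap to the nearest tumor, as a share of the group's range, was above Dixon's critical value for 4 values. Over the named kinesins, the class means and the mitotic minus transport difference, 108 groups were examined. Of these, 6 held such a tumor, with gaps of 0.847 to 0.951 of the range. Chance gives about 1 in 20, so this count was near what chance gives. Metastatic CR1 stood below the other metastases for Kif20a, at 666 normalized counts against 1193 to 1284, and for Kif22, at 201 against 392 to 402. For Kif7 metastatic CR1 stood above them, at 196 against 100.7 to 108. Primary CR1 stood above the other primaries for Kifc1, at 91.3 against 18.6 to 28.4. Kif19a had primary AS2 at 19.5 against 4.31 to 6.63 among primaries, and metastatic CR2 at 44.7 against 4.31 to 8.67 among CR tumors.

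Kif4 and Kif9 differed in the metastatic against primary change between phenotypes by the interaction term at an unadjusted p under 0.05. For Kif4 the term was -1.76 on the log2 scale, with 0.65 within AS and -1.10 within CR. For Kif9 it was 1.997, with -1.66 within AS and 0.33 within CR. In the fit reported, neither passed after adjustment over all genes by edgeR (adjusted p of at least 0.964), and without the low-count filter Kif4 did (adjusted p = 0.0165).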

How the results depend on the processing

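No paired analysis was possible because the labels call the metastases matched without naming the primary tumor of each, and the tumor numbers, given by order alone, were not taken as a pairing. In metastatic against primary tumors the count of mitotic kinesins at an unadjusted p under 0.05 was 5, 8 with DESeq2, and 2 to 10 without 1 tumor, with 10 reached without primary CR1. The added DESeq2 fit without primary CR1 gave 9 adjusted calls, 11 mitotic and 1 transport kinesin at an unadjusted p under 0.05, a mitotic median of 1.58, a difference between class medians of 1.76 (1.15 in the fit reported) and 9 genes without overlap. It turned Kif5c to 0.0069. The transport median moved from -0.20 to -0.069 with a CPM filter and to -0.070 with all remaining kinesins in that class, and phenotype as a covariate gave 3 transport kinesins at an unadjusted p under 0.05.

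In CR against AS tumors the 5 adjusted calls became 10 with DESeq2 and 10 with no filter. The transport median of -0.38 moved to -0.47 with no filter, -0.50 with the CPM filter, -0.26 with all remaining kinesins and -0.53 with phenotype alone, where 0 mitotic kinesins had an unadjusted p under 0.05. Kif5b turned to -0.028 with no filter and Kif19a to 0.027 with phenotype alone. Kif1c missed the threshold there (adjusted p = 0.0508). For the interaction, RLE factors left 1 mitotic kinesin at an unadjusted p under 0.05, and no filter gave 8 and 1 adjusted call, Kif4. The cause of these moves was not tested.

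Leaving out 1 tumor at a time gave, for metastatic against primary, 0 adjusted calls throughout, a mitotic median of 0.73 to 1.58, a transport median of -0.23 to 0.00051, a difference of 0.87 to 1.76, 0 to 1 transport kinesins at an unadjusted p under 0.05 and 0 to 9 mitotic kinesins without overlap. For CR against AS it gave 2 to 8 adjusted calls, a mitotic median of -0.27 to 0.61, a transport median of -0.58 to -0.27, a difference of 0.0096 to 1.08, 0 to 2 mitotic and 8 to 11 transport kinesins at an unadjusted p under 0.05. Mitotic counts at an unadjusted p under 0.05 were 1 to 10 for the interaction, 0 to 11 within AS and 0 to 10 within CR. Signs turned for metastatic against primary in Kif4 (-0.54 to 0.22), Kif1b (-0.41 to 0.11) and Kif5c (-0.51 to 0.20). For CR against AS they turned in Kif11 (-0.53 to 0.63), Kif15 (-0.046 to 0.87), Kif18b (-0.35 to 0.64), Kif20a (-0.47 to 0.45), Kif20b (-0.068 to 0.79), Kif22 (-0.39 to 0.53), Kif23 (-0.33 to 0.53), Kif2c (-0.28 to 0.39), Kifc1 (-0.25 to 1.03), Kif4 (-0.060 to 0.59), Kif1a (-0.71 to 0.17) and Kif19a (-1.19 to 0.31). Libraries of 20905806 to 91886163 counts and 2 tumors a group limit all values within phenotypes.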

Other observations

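The spindle and cytokinesis partners of the mitotic kinesins were also compared within phenotypes. Within AS tumors 21 of 22 partners were higher in metastases with a median log2 fold change of 1.60, and 13 had an unadjusted p under 0.05 by edgeR, against 1.55% of all genes in that direction. Within CR tumors 20 of 22 were higher with a median of 0.62 and 0 had an unadjusted p under 0.05, which 1462 of 18889 genes had. The interaction term was negative for 19 of 22 with a median of -0.98, and 0 partners had an unadjusted p under 0.05 for it, against 2.74% of all genes. Transport partners had a median of -0.05 within AS and -0.08 within CR tumors.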
